A study of Homo sapiens with 20 samples.

Results

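The genes described here were those whose symbols begin with KCN, with CACN, or with SCN and a digit, the naming stems of potassium, calcium and sodium channel subunits. Of 19775 genes with a probe set that names 1 gene, 136 met this rule, through 278 such probe sets, and 76 of them had more than 1. The genes were chosen by symbol. Among a gene's probe sets the 1 used was selected on its mean brightness over the 20 arrays, without use of a comparison between groups. The symbol rule uses no expression values, but it was chosen with earlier results of these data known. The stems reach beyond voltage-gated channels. They also take in inward rectifier, tandem-pore and calcium-activated potassium channels, accessory subunits, and 14 antisense, regulatory or noncoding transcripts that carry a channel's name, and 54 of the 136 genes encode pore-forming subunits of voltage-gated channels.

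RNA came from LNCaP, an androgen-sensitive human prostate cancer line, and from C42B, a line derived from LNCaP that grows with little androgen. In each line an siRNA against LSD1 (siLSD1), a histone demethylase encoded by KDM1A, was set against a control siRNA (siNTC), and in C42B the androgen dihydrotestosterone (DHT) was set against ethanol vehicle. The siRNA groups held 3 arrays each and the DHT and vehicle groups 4 each. The question was which channel transcripts differ once LSD1 is lowered, and which once androgen is added. C42B cells of both siRNA groups were transfected for 6 h and kept 96 h in medium with 10% CSS, a serum low in steroids, and RNA from 6 separate wells gave the 3 replicates, with the labels not clear on whether per group or in all. LNCaP cells of both siRNA groups received 50 nM siRNA and stayed 96 h in 10% FBS, so that serum and line cannot be told apart, and each replicate pooled 2 wells. For the androgen experiment C42B cells were held for 72 h in the same 10% CSS medium before 100 nM DHT or an equal volume of ethanol was added for 16 h, and RNA was taken from 4 separate wells. The labels do not say whether more than 1 siRNA sequence was used, so LSD1 loss and other effects of the siRNA cannot be told apart. Only the LNCaP replicates are called biological in the labels: p-values reflect differences among these samples, and the spread that the p-values rest on may be technical in the others.

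Ion channels are membrane proteins that let selected ions cross when they open. Voltage-gated channels open when the membrane potential changes: sodium channels start the action potential, calcium channels turn it into a calcium signal, and potassium channels end it. Tandem-pore and inward rectifier potassium channels set the resting potential of most cells, epithelial cells included, while accessory subunits bring pores to the surface and tune their gating. LSD1 works in a complex with CoREST and REST, a repressor best known for keeping neuronal genes, sodium channels among them, silent outside the nervous system. In prostate cancer cells the androgen receptor, which DHT activates, controls a large share of the luminal program.

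The results below turn most on 4 genes, the sodium channel beta subunit SCN4B, the silent potassium channel subunit KCNG3, the calcium-activated potassium channel KCNMA1 and the tandem-pore channel KCNK5. The 250 bases before each gene's start are shown because each of these genes moved by more than any other channel gene in at least 1 comparison and direction, and so that a reader can set their sequence against the response. They come from RefSeq (GRCh38.p14), all from the minus strand, and read 5′ to 3′ with CG dinucleotides in capitals. SCN4B lies at chr11:118145434-118145683, KCNG3 at chr2:42493983-42494232, KCNMA1 at chr10:77637809-77638058 and KCNK5 at chr6:39229476-39229725.
SCN4B: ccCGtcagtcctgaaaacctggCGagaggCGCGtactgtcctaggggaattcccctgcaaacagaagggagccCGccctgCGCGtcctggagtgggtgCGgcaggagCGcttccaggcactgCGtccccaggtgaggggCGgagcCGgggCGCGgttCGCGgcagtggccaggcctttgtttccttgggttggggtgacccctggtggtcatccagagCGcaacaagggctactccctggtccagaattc
KCNG3: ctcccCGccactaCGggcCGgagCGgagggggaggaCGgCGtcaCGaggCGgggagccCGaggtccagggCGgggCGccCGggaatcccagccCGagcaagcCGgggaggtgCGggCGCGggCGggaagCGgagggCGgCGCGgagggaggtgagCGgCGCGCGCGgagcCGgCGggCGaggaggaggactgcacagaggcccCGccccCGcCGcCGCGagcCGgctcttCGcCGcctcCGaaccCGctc
KCNMA1: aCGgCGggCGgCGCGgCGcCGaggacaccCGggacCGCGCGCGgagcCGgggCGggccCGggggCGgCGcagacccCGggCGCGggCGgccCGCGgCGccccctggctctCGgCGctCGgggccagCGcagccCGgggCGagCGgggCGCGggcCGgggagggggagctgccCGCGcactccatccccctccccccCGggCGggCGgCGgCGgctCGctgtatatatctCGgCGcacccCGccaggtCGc
KCNK5: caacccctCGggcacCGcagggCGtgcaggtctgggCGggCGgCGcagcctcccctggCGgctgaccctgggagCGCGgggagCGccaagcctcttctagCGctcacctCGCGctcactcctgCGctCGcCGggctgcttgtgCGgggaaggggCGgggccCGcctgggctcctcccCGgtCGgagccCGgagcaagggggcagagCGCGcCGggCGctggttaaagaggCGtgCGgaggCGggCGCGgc
The KCNMA1 window held 46 CG dinucleotides, that of KCNG3 40, that of KCNK5 31 and that of SCN4B 17. The median over 15384 promoters of the genes tested was 18 and that over the 102 channel genes with an entry was 15, so 3 of the windows were rich in CG and SCN4B was near the middle. The androgen receptor motif AGAACA, searched on both strands, stood in 9.35% of all these promoters and in 6 of the 102 channel promoters (5.88%), and the full palindromic androgen response element was found in 0 of 15384. The left part of the REST motif, TTCAGCACC, stood in 0.267% of all promoters and in 3 channel promoters (2.94%), those of CACNG3, KCNH6 and KCNK3. The right part, GGACAGC, stood in 5.34% of all and in 9 channel promoters (8.82%). None of these letters occurs in the windows printed above, which says only that they are not in these bases.

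Levels are log2 of the deposited intensity, and a group mean under 6 is called dim here, a level at which a probe set gives little more than background. The counts of dim genes that follow hold for the probe set used. In 65 of the 136 channel genes all 6 group means were dim, in 71 at least 1 reached 6, and in 40 all of them did. Over all genes, 14717 of 19775 reached 6 in at least 1 group, so channel genes were dim more often. Just above the limit lay KCNAB3, KCNK15 and KCNH4, with highest group means of 6.03, 6.06 and 6.07, and just below it CACNA1C, KCNJ9 and KCNK9, with 5.98, 5.99 and 5.99, although a second probe set of CACNA1C (6.08) and of KCNK9 (6.07) passed it. Of the 35 pore-forming subunits of voltage-gated potassium channels, 18 reached 6 in a group and 9 in all groups: KCND3, KCNF1, KCNG1, KCNH2, KCNH3, KCNQ1, KCNQ3, KCNS1 and KCNS3. Of their 12 accessory subunits 8 reached 6, KCNAB2, KCNE3, KCNIP2 and KCNIP3 in every group.

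Of the 10 calcium channel pores (alpha1 subunits) 8 reached 6 in a group, and CACNA1A, CACNA1G, CACNA1H and CACNA1I did so in every group. The last 3 of these encode the T-type, low-voltage pores. All 3 calcium channel beta subunits measured here and 5 of 8 gamma subunits, which include regulators of glutamate receptors, were at 6 or above in every group. Of the 4 alpha2delta subunits, which carry channels to the surface, CACNA2D2 was at 6 or above throughout. Sodium channels stood at the other end: of 9 pore-forming genes SCN3A and SCN8A alone reached 6 in a group, 0 reached it in all groups, and the beta subunits SCN2B and SCN4B, of 3, reached it in some groups. SCN2A, a classic target of REST, was dim in all 6 groups.

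Among channels that are not gated by voltage alone, 8 of 14 tandem-pore genes, 6 of 11 calcium- or sodium-activated genes and 4 of 13 inward rectifiers reached 6 in a group. KCNMA1, the large-conductance potassium channel opened by calcium and voltage together, had group means of 10.28 to 11.31. Of the 14 other transcripts 5 reached 6, among them KCNQ1OT1, the noncoding transcript of the imprinted KCNQ1 locus, and KCNRG, a soluble protein that lowers potassium channel assembly. Arrays seem to have been normalized within each experiment, so these levels were not compared between experiments.

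**Figure D1:**
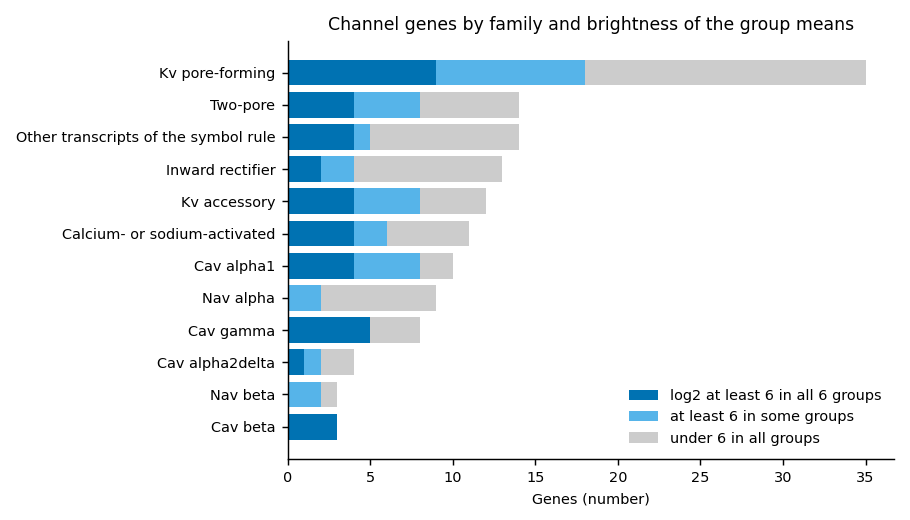
Number of channel genes (x axis) in each family (Kv, Cav and Nav are voltage-gated potassium, calcium and sodium channels, and two-pore the tandem-pore genes), split by whether all 6 group means, some of them or none reached 6 on the log2 intensity scale. The calcium channel beta subunits have 3 of 3 genes at 6 or above in every group, and the sodium channel pores 0 of 9.

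KDM1A, the target of the siRNA, was lower in the siLSD1 arrays of both lines. In C42B it read 7.88 ± 0.12 in siLSD1 and 10.29 ± 0.08 in siNTC arrays (log2, SD, n = 3 each), a loss of 81.1% of the intensity. In LNCaP it read 7.30 ± 0.09 and 10.08 ± 0.14, a loss of 85.4%. Both falls passed (limma, adjusted p = 1.2e-05 and 2.4e-06), and the exact permutation test gave p = 0.1 in each line, its minimum with groups of 3. With DHT KDM1A was 0.16 ± 0.04 (SE) higher than with vehicle (adjusted p = 0.020). An exact permutation test gave p = 0.029, its minimum with groups of 4, and without vehicle replicate 4 the limma adjusted p was 0.057. The 8 luminal prostate markers were at 6 or above in every group, and 3 of them rose with siLSD1 in C42B and in LNCaP: TMPRSS2 by 0.77 and 0.77, KLK2 by 0.74 and 0.40 and KLK3 by 0.40 and 0.36. The part of these rises in the channel results was not tested. Summed over the list, siLSD1 and siNTC arrays stood at 49616 to 50061 and 39894 to 41123 in C42B and at 35072 to 36736 and 28783 to 29901 in LNCaP, and DHT and vehicle arrays at 53625 to 55206 and 21545 to 23078. Median intensities spanned 101 to 104 in the C42B siRNA arrays, 82.1 to 84.5 in LNCaP and 106 to 109 in the DHT and vehicle arrays, and replicates of a group differed by an SD of 0.13 to 0.21 over genes.

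With siLSD1 in C42B, 7 channel genes rose and 3 fell. The largest rise was that of SCN4B, followed by KCNG3, and the largest fall was that of KCNQ5, a slowly activating potassium channel of the M-current type. The 10 genes are 7.35% of the 136, against 18% of all 19775 genes (limma, adjusted p under 0.05), of which 8.66% rose and 9.39% fell, and 27 channel genes had an unadjusted p under 0.05. Of genes at 6 or above in at least 1 of the 2 groups, 12.3% of channel genes and 24.1% of all genes were called. The median change over the channel genes was 0.00, against -0.02 over all genes.

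SCN4B encodes a beta subunit that anchors and modulates sodium channel pores. Its log2 intensity was 7.27, 7.24 and 7.22 in the siLSD1 arrays and 5.65, 5.58 and 5.57 in the siNTC arrays. All siLSD1 arrays thus stood well above all controls, which were dim. The difference was 1.65 ± 0.05 (SE, adjusted p = 1.1e-05), or, counted from the dim limit of 6, at least 1.24 and at least 2.37-fold. None of the 9 sodium channel pores it could join passed the test in C42B (limma; 2 had an unadjusted p under 0.05).

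KCNG3 encodes a subunit that forms no channel alone and modifies the KCNB family of delayed rectifiers. It read 6.61, 6.59 and 6.79 with siLSD1 and 5.62, 5.23 and 5.57 with siNTC, again with dim controls and no overlap. The rise was 1.19 ± 0.11 (SE, adjusted p = 7.5e-04), at least 0.66 and at least 1.59-fold from the limit. Another probe set of the gene was dim in all groups and differed by -0.05. KCNB2, a partner with a probe set here, was dim in every group.

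KCNQ5 fell: its siLSD1 arrays read 5.70, 5.83 and 5.84 and its siNTC arrays 6.41, 6.38 and 6.46. The groups were apart by more than their spread, at -0.62 ± 0.06 (SE, adjusted p = 7.5e-04), a fall of at least 0.41 to the limit. In the KCNQ1 domain, KCNQ1OT1 fell by 0.41 ± 0.07 (adjusted p = 0.0073), from 8.17, 8.15 and 8.35 to 7.87, 7.84 and 7.74. Averaged over all its probe sets, that fall was 0.11 and did not pass (adjusted p = 0.31).

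Of the other rises, 2 were in the family of KCNMA1 and its relatives. KCNU1, a relative of KCNMA1 and the pH-sensitive potassium channel known from sperm, read 6.45, 6.10 and 6.32 with siLSD1 and 5.75, 5.71 and 5.57 with siNTC, a rise of 0.61 ± 0.10 (SE, adjusted p = 0.0053) and of at least 0.29 from the limit. KCNMA1 rose by 0.23 ± 0.05 (adjusted p = 0.017), with siLSD1 arrays at 10.90, 10.93 and 10.92 and siNTC arrays at 10.70, 10.72 and 10.63. Its groups did not overlap, but the call was lost when all its probe sets were averaged (0.05, adjusted p = 0.61) and when siLSD1 replicate 2 or 3 or siNTC replicate 3 was left out (adjusted p = 0.056 to 0.068).

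KCNK5, an acid-sensitive tandem-pore channel of epithelia, rose by 0.38 ± 0.08 (SE, adjusted p = 0.015). Its arrays read 8.50, 8.68 and 8.79 with siLSD1 and 8.24, 8.31 and 8.28 with siNTC, and without the second siLSD1 or the first siNTC array the adjusted p was 0.055 and 0.054. KCNRG rose by 0.32 ± 0.05 (adjusted p = 0.0067), from 6.37, 6.47 and 6.34 to 6.71, 6.74 and 6.71. This gene overlaps DLEU2 and TRIM13 in the annotation, so the probe set may read their transcripts too. The other 2 calls, a rise of KCNJ13 by 0.35 and a fall of KCNMB2 by 0.25, were in genes dim in both groups. Without the first siLSD1 array the number of channel genes that fell was 10 in place of 3, and without the second siNTC array it was 5.

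In LNCaP siLSD1 raised 12 channel genes and lowered 1. The 13 genes are 9.56% of the 136, against 25.9% of all genes, of which 13.4% rose and 12.5% fell, and 24 channel genes had an unadjusted p under 0.05. Of genes at 6 or above in at least 1 of the 2 groups, 19.1% of channel genes and 37.6% of all genes were called. With quantile normalization 10 rose and 3 fell, and with centring on the array median 9 rose and 3 fell. The 35 pores of voltage-gated potassium channels, silent subunits counted, made up 6 of the 12 rises, and 0 of them fell (limma; 9 had an unadjusted p under 0.05 in either direction). These rises are 17.1% of the 35, against the 13.4% of all genes. Among the 6, KCNG3 and KCNG1 are silent subunits that form no channel alone, and KCNA5 was dim in both groups. The median over these 35 was 0.03, and over all genes it was 0.01.

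KCNG3 gave the largest rise. It read 7.36, 7.59 and 7.59 with siLSD1, and 4.99, 5.57 and 5.46 with siNTC, where it was dim as in C42B. The difference was 2.17 ± 0.14 (SE, adjusted p = 2.7e-05), at least 1.51 and at least 2.85-fold from the limit. Its other probe set, dim throughout, differed by 0.13. AMIGO1, an adhesion protein that accompanies KCNB channels, rose by 0.64 ± 0.08 (adjusted p = 5.3e-04).

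KCND3, a pore of fast-inactivating (A-type) potassium currents, read 8.06, 8.08 and 8.05 with siLSD1 and 7.32, 7.32 and 7.18 with siNTC. It was 0.79 ± 0.06 (SE) and 1.72-fold higher (adjusted p = 6.0e-05), with arrays of each group close together. KCNQ1, the potassium channel pore of cardiac repolarization and epithelial transport, read 8.27, 8.31 and 8.16 against 7.71, 7.65 and 7.46. Its rise was 0.64 ± 0.08 (adjusted p = 6.6e-04), and the probe set next in brightness differed by 0.10 and did not pass (adjusted p = 0.47 over all probe sets). KCNQ1 overlaps KCNQ1OT1 and KCNQ1-AS1, so its signal cannot be given to 1 transcript with certainty.

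KCNG1, another silent subunit of the KCNB family, read 7.65, 7.64 and 7.60 with siLSD1 and 7.07, 7.01 and 6.92 with siNTC, a rise of 0.63 ± 0.06 (SE, adjusted p = 1.8e-04). Its other probe set differed by -0.13 (adjusted p = 0.29 over all probe sets), so the rise rests on 1 of 2. KCNH2, the hERG channel, read 7.79, 7.67 and 7.69 against 7.51, 7.10 and 7.34 and was 0.40 ± 0.10 higher (adjusted p = 0.021). A further probe set of KCNH2, with means of 6.07 and a dim 5.62, also rose (adjusted p = 0.0091 over all probe sets). The call on the brightest was lost without siLSD1 replicate 1 or 3 or siNTC replicate 3 (adjusted p = 0.075, 0.061 and 0.051).

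Calcium channels contributed CACNA2D2 and CACNA1D. CACNA2D2 read 7.62, 7.54 and 7.59 with siLSD1 and 7.03, 7.02 and 7.05 with siNTC, a rise of 0.55 ± 0.05 (SE, adjusted p = 1.9e-04) many times the spread within groups. CACNA1D, an L-type pore that opens at low voltage, read 6.60, 6.09 and 6.08 against 5.89, 5.70 and 5.87, a rise of 0.44 ± 0.14 (adjusted p = 0.048) and of at least 0.26 from the limit. It lies close to the threshold: without the first siLSD1 array the rise was 0.27 (adjusted p = 0.054), and with median centring it was 0.40 (adjusted p = 0.057). Without siNTC replicate 1, 2 or 3 the rise was 0.47, 0.38 and 0.46 (adjusted p = 0.068, 0.14 and 0.091). Another of its probe sets, with means of 6.27 and a dim 5.62, also rose (adjusted p = 0.015 over all probe sets).

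KCNK1, a tandem-pore channel, was the channel gene that fell. It read 7.75, 7.52 and 7.72 with siLSD1 and 8.18, 7.89 and 8.09 with siNTC, a fall of 0.39 ± 0.09 (SE, adjusted p = 0.017), and its next probe set fell by 0.58. The call on the brightest was lost without siLSD1 replicate 2 or siNTC replicate 3 (adjusted p = 0.063 and 0.056). KCNRG was 0.22 ± 0.06 higher (adjusted p = 0.030), at 7.46, 7.49 and 7.50 against 7.19, 7.35 and 7.25. That call was lost with quantile normalization, with centring and without any 1 of the siLSD1 arrays or siNTC replicate 1 or 3 (adjusted p = 0.060 to 0.096). SCN4B rose by 0.46 ± 0.11 (adjusted p = 0.018) but was dim in both groups, at 5.22, 5.29 and 5.38 against 5.04, 4.88 and 4.57, and its adjusted p was 0.052 and 0.072 without siLSD1 replicate 2 or 3. KCNA5, KCNAB1 and KCNK15-AS1 rose by 0.20, 0.24 and 0.56 while dim in both groups. Without the third siLSD1 array 7 channel genes rose in place of 12, and the number that fell was 0 to 3 over the arrays left out.

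**Figure D2:**
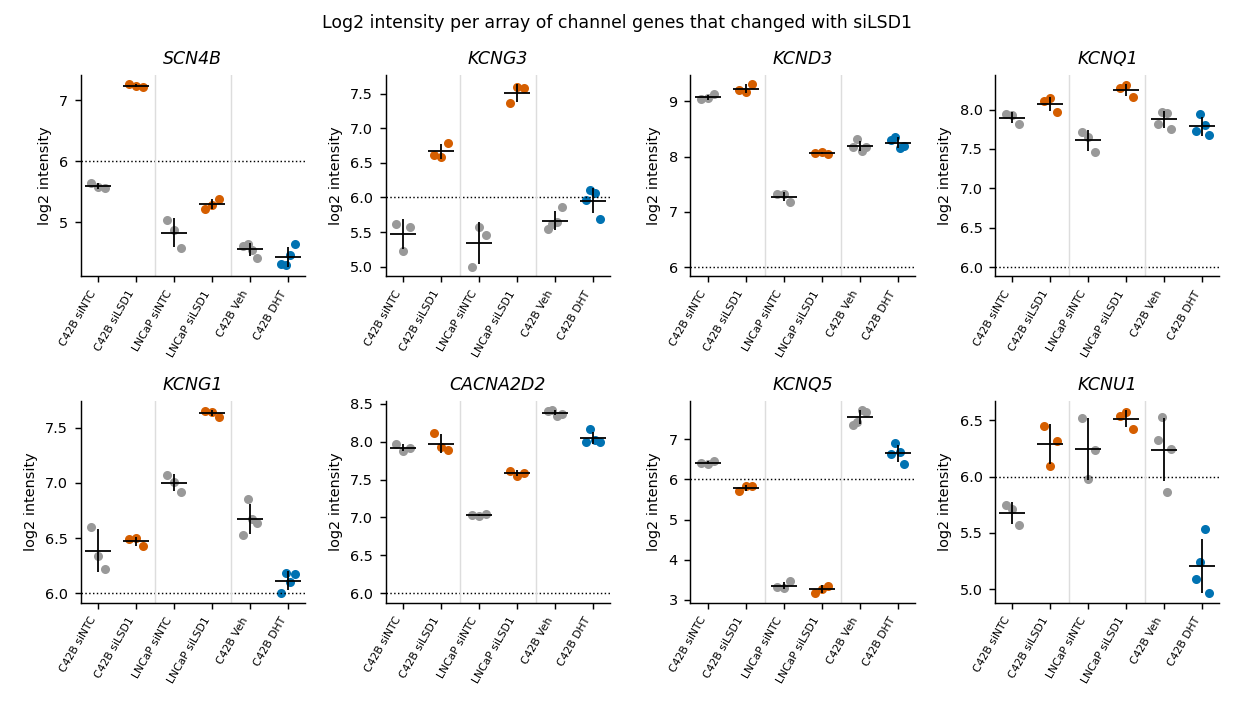
Log2 intensity (y axes) of 8 channel genes that changed with siLSD1 in each of the 20 arrays, by group (points; orange siLSD1, blue DHT, grey siNTC or vehicle), with horizontal bars at the mean, vertical bars for SD, a dotted line at 6 and grey lines between experiments, across which levels are not compared. SCN4B is at 7.22 to 7.27 in the C42B siLSD1 arrays and KCNG3 at 7.36 to 7.59 in the LNCaP siLSD1 arrays, while both genes' controls lie under 6.

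The signed effect of siLSD1 was higher in LNCaP than in C42B for 9 channel genes and lower for 3. These 12 genes are 8.82% of the 136, against 11.6% of all genes (limma contrast over the 12 siRNA arrays), of which 6.07% had the higher and 5.56% the lower effect in LNCaP, and 26 channel genes had an unadjusted p under 0.05. Among genes at 6 or above in at least 1 of the 4 groups, 16.9% of channel genes and 15.4% of all genes were called. Line, serum medium and transfection differ together between the experiments and cannot be told apart. Of the 9, 6 were among the 35 pores of voltage-gated potassium channels, silent subunits counted: KCNG3, KCND3, KCNG1, KCNQ5, KCNH2 and KCNQ1. They are 17.1% of that family, against the 6.07% of all genes. The families were chosen with earlier results of these data known.

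For KCNG3 the difference between the effects, LNCaP minus C42B, was 0.98 ± 0.20 (SE, adjusted p = 0.0075). Its controls were dim in both lines, so each rise is known only as a lower bound and the size of this difference rests on values near background. For KCND3 the difference was 0.63 ± 0.08 (adjusted p = 4.8e-04). In C42B its brightest probe set read 9.20, 9.16 and 9.32 with siLSD1 and 9.04, 9.05 and 9.12 with siNTC, a change of 0.15. A second KCND3 probe set rose in both lines (adjusted p = 0.038 and 7.3e-04 over all probe sets), from 7.05 to 7.66 in C42B and from a dim 5.58 to 6.22 in LNCaP. On this probe set the effects differed by 0.03 and that difference did not pass.

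KCNG1 differed by 0.54 ± 0.12 (SE, adjusted p = 0.0092), KCNH2 by 0.53 ± 0.13 (adjusted p = 0.020) and KCNQ1 by 0.47 ± 0.11 (adjusted p = 0.015). In C42B the siLSD1 and siNTC arrays of KCNG1 overlapped, at 6.43 to 6.50 and 6.22 to 6.60. CACNA2D2 differed by 0.50 ± 0.09 (adjusted p = 0.0031), and its C42B arrays overlapped at 7.88 to 8.11 and 7.88 to 7.97. KCNQ5, which fell in C42B, differed by 0.53 ± 0.10 (adjusted p = 0.0037) and was dim in both LNCaP groups, at 3.16 to 3.46. CACNB2, a beta subunit of calcium channels, differed by 0.44 ± 0.11 (adjusted p = 0.027) without passing in either line alone on the probe set used. Its second probe set rose by 0.51 in LNCaP while dim in both groups there (limma, adjusted p = 0.0066 over all probe sets). On that probe set the effects differed by 0.69 (adjusted p = 0.013 over all probe sets). The differences of KCNH2 and CACNB2 missed the threshold when single arrays were left out, C42B siLSD1 replicates 2 and 3 and LNCaP siLSD1 replicate 1 for KCNH2 (adjusted p = 0.051 to 0.056), and C42B siLSD1 replicate 3, C42B siNTC replicates 1 and 3 and LNCaP siLSD1 replicate 2 for CACNB2 (0.056 to 0.070).

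In the other direction SCN4B stood out, with a difference of -1.18 ± 0.13 (SE, adjusted p = 1.7e-04): in LNCaP it was dim in both groups, so the comparison of sizes there rests on values near background. KCNK5 differed by -0.42 ± 0.11 (adjusted p = 0.025) and was also dim in LNCaP, at 5.35 to 5.58. That call was lost without C42B siLSD1 replicate 2 or 3, C42B siNTC replicate 1 or 3, LNCaP siLSD1 replicate 2 or LNCaP siNTC replicate 3 (adjusted p = 0.052 to 0.066). KCNMA1 differed by -0.34 ± 0.08 (adjusted p = 0.013), with LNCaP arrays at 10.61, 10.75 and 10.76 for siLSD1 and 10.80, 10.86 and 10.79 for siNTC. When all probe sets of a gene were averaged, the differences of KCND3, KCNG1, KCNQ1, KCNMA1 and CACNB2 no longer passed (adjusted p = 0.27, 0.22, 0.15, 0.095 and 0.39), and 4 genes in place of 9 had the higher effect in LNCaP.

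**Figure D3:**
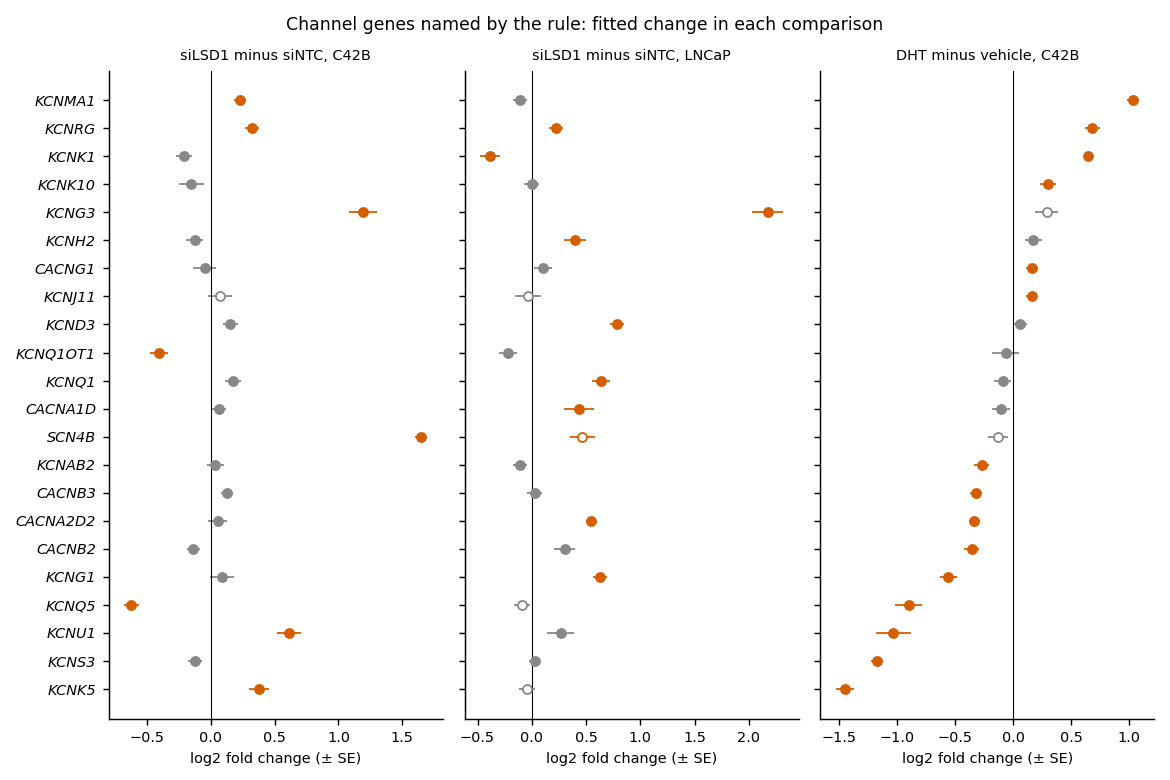
Change with siLSD1 or DHT on the log2 scale (points, ± SE) for 22 named channel genes, 1 panel per comparison. Orange points passed an adjusted p of 0.05, grey ones did not, and open points are dim in both groups of that comparison, with SCN4B at 1.65 in C42B and KCNG3 at 2.17 in LNCaP farthest to the right.

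The channel genes called in both lines were KCNG3, KCNRG and SCN4B, and all 3 rose in both. They are 30% of the 10 calls in C42B and 23.1% of the 13 in LNCaP, against 62.4% and 43.5% among all genes. Over the 136 genes the changes in the lines had a Pearson r of 0.51 and a Spearman rho of 0.18, against 0.58 and 0.46 over all 19775 genes. These are correlations across genes, which are not independent replicates, and the points share the array design. KCNG3 and SCN4B are the points far from the rest.

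**Figure D4:**
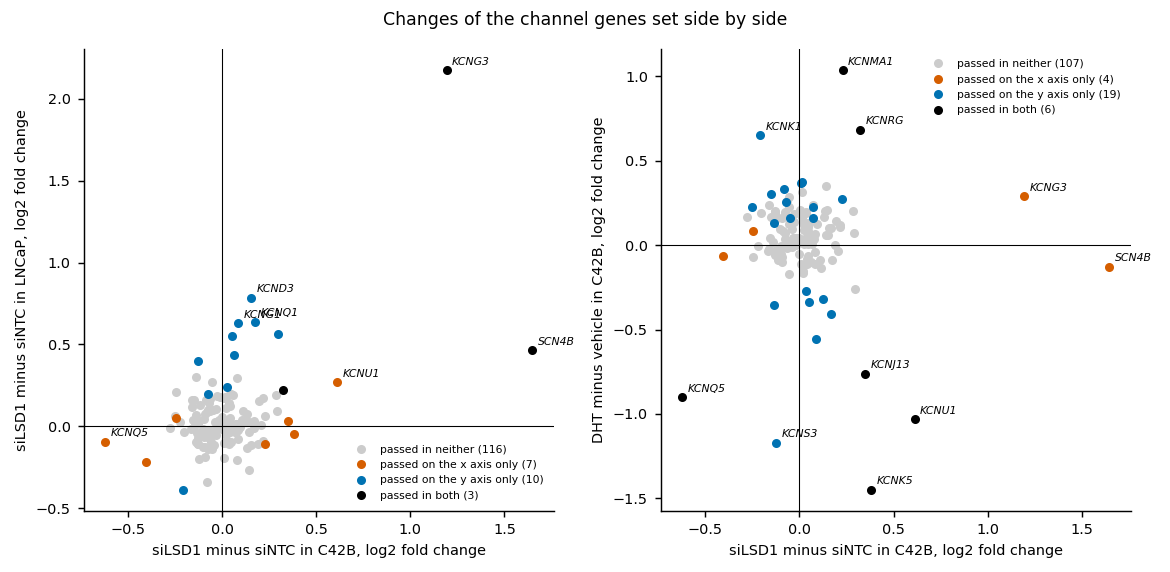
Log2 change of each of the 136 channel genes with siLSD1 in C42B (x axis) against the change with siLSD1 in LNCaP and with DHT in C42B (y axes), where grey points passed in neither comparison, orange ones on the x axis only, blue ones on the y axis only and black ones in both. KCNG3 lies at 1.19 and 2.17, SCN4B at 1.65 and 0.46, and most other genes lie near 0.

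DHT in C42B raised 14 channel genes and lowered 11, among them KCNMA1, which was 2.05-fold higher, and KCNK5 and KCNS3, which were 2.73-fold and 2.25-fold lower. The 25 genes are 18.4% of the 136, against 32.7% of all genes, of which 13.4% rose and 19.4% fell, and 36 channel genes had an unadjusted p under 0.05. With the arrays centred on their medians 31 rose and 11 fell, and without the second vehicle array 9 rose. Of the 8 luminal markers 5 rose and 3 fell in the same arrays, and the known androgen targets KLK2, KLK3 and TMPRSS2 rose by 5.19, 2.74 and 3.08. In 20 of the 25 genes the groups did not overlap. This count is not set beside that of all called genes, so it shows nothing particular to channel genes. Of the 25 genes 9 were dim in both groups: KCNE4, KCNH7, KCNH8, KCNJ4, KCNK10-AS1, KCNMA1-AS1 and SCN1A rose and CACNA2D3 and KCNJ13 fell.

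KCNMA1 read 11.30, 11.39, 11.20 and 11.36 with DHT and 10.27, 10.26, 10.23 and 10.35 with vehicle. Each DHT array lay above each vehicle array by more than the spread of either group, at 1.04 ± 0.05 (SE, adjusted p = 4.2e-07). A further probe set rose by 1.43, another rose from a dim 5.24 to 6.69, and the last, dim in both groups, differed by 0.22 and did not pass. KCNMA1-AS1, which overlaps the gene, was dim. Among the 136 genes of the symbol rule, the accessory subunits of KCNMA1 are KCNMB1 to KCNMB4. KCNMB3 and KCNMB4 were at 6 or above in every group.

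KCNK1 rose by 0.65 ± 0.04 (SE, adjusted p = 1.6e-06), with DHT arrays at 10.85, 10.88, 10.84 and 10.86 and vehicle arrays at 10.26, 10.21, 10.22 and 10.15. Its next probe set rose by 0.73. KCNRG rose by 0.68 ± 0.07 (adjusted p = 3.8e-05), at 6.77, 6.95, 6.97 and 6.98 against 6.09, 6.31, 6.23 and 6.30. Both genes kept their groups apart, and KCNRG was the one channel gene called in all 3 comparisons, always higher.

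Smaller rises with DHT were those of KCNK10, a mechanosensitive tandem-pore channel, by 0.30 ± 0.07 (SE, adjusted p = 0.0069), of CACNG1, a calcium channel gamma subunit of muscle, by 0.16 (adjusted p = 0.031), and of KCNJ11, the pore of ATP-sensitive potassium channels, by 0.16 (adjusted p = 0.031). The rise of KCNK10 was lost when its probe sets were averaged (0.13, adjusted p = 0.30). Those of CACNG1 and KCNJ11 were lost with a trended and robust variance (adjusted p = 0.12 and 0.15). They were also lost without DHT replicate 1, 2 or 4 or vehicle replicate 1 or 2 for CACNG1 (adjusted p = 0.053 to 0.082), and without DHT replicate 2 or 3 or vehicle replicate 2, 3 or 4 for KCNJ11 (0.068 to 0.078). SCN8A, the sodium channel pore that reached 6 in these arrays, was 0.25 higher (adjusted p = 0.036), with overlapping groups.

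KCNK5 fell most. It read 7.14, 7.13, 7.09 and 6.82 with DHT and 8.49, 8.62, 8.38 and 8.48 with vehicle, a fall of 1.45 ± 0.08 (SE, adjusted p = 8.7e-07) that left the groups far apart. KCNS3, a silent subunit that modifies KCNB channels, read 7.59, 7.46, 7.50 and 7.55 with DHT and 8.59, 8.68, 8.77 and 8.75 with vehicle, a fall of 1.17 ± 0.05 (adjusted p = 1.8e-07). KCNG1, the silent subunit that rose in LNCaP, fell by 0.56 ± 0.07 (adjusted p = 2.6e-04), from 6.53 to 6.85 with vehicle to 6.00 to 6.18 with DHT. Its other probe set differed by 0.02. KCNG3 was 0.29 higher with overlapping groups, both dim, and did not pass (adjusted p = 0.0501). The other silent subunits measured, KCNF1, KCNG2, KCNG4, KCNS1, KCNS2, KCNV1 and KCNV2, differed by -0.14 to 0.18 and did not pass.

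KCNU1 read 5.09, 5.24, 5.53 and 4.97 with DHT and 6.32, 6.53, 5.86 and 6.24 with vehicle, a fall of 1.03 ± 0.15 (SE, adjusted p = 6.4e-04) and of at least 0.24 to the limit. KCNQ5 read 6.63, 6.91, 6.68 and 6.39 with DHT and 7.36, 7.44, 7.73 and 7.68 with vehicle. Its fall was 0.90 ± 0.12 (adjusted p = 2.7e-04), and a second probe set differed by 0.04. In both genes the groups did not overlap.

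Of the calcium channels' accessory subunits measured here, 2 of 3 beta and 2 of 4 alpha2delta genes fell with DHT (CACNA2D3 while dim). Of 8 gamma genes 1 rose and none fell. Over all genes 19.4% fell, 13.4% rose and 32.7% were called in either direction. Families of 3 to 10 genes are too small to be set closely against these shares. CACNB1 and CACNA2D1 differed by 0.04 and 0.16 and did not pass. CACNB2 fell by 0.36 ± 0.07 (SE, adjusted p = 0.0024), with arrays at 7.07 to 7.18 with DHT and 7.33 to 7.64 with vehicle, and its second probe set fell by 0.80. CACNB3 fell by 0.32 ± 0.05 (adjusted p = 7.2e-04), from 8.08 to 8.21 with vehicle to 7.73 to 7.87 with DHT, and its other probe set fell by 0.20. CACNA2D2 fell by 0.34 ± 0.05 (adjusted p = 5.0e-04), from 8.34 to 8.41 with vehicle to no more than 8.16 with DHT. On the probe sets used, none of the 10 alpha1 pores passed (limma; 0 had an unadjusted p under 0.05), with changes of -0.11 to 0.20. Further probe sets of CACNA1D, dim in both groups, fell by 0.56 and 0.35 (limma, adjusted p = 0.0060 and 0.0086 over all probe sets). A further one of CACNA1C, also dim, rose by 0.32 (adjusted p = 0.023 over all probe sets). KCNAB2, a cytoplasmic beta subunit of voltage-gated potassium channels, fell by 0.27 ± 0.06 (adjusted p = 0.0096), a call lost when its probe sets were averaged and with quantile normalization (adjusted p = 0.072 and 0.084).

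**Figure D5:**
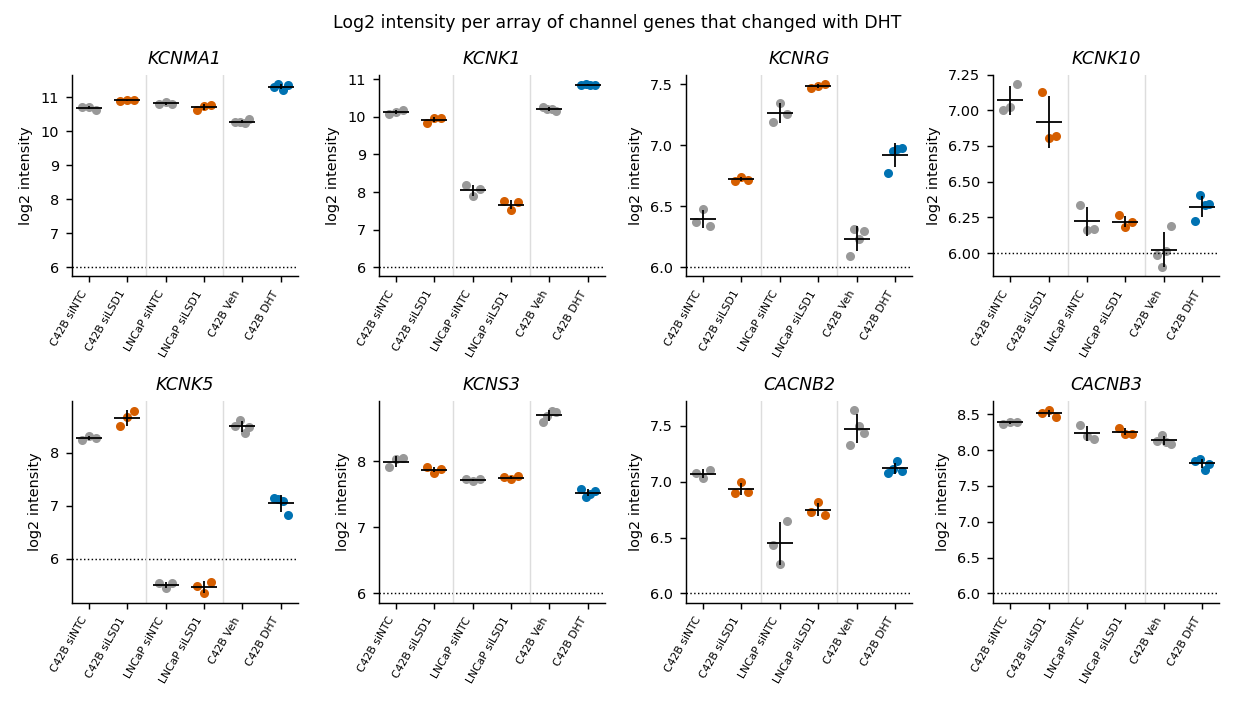
Log2 intensity (y axes) of 8 channel genes that changed with DHT in each of the 20 arrays, by group (points; blue DHT, orange siLSD1, grey controls), with horizontal bars at the mean, vertical bars for SD and a dotted line at 6. KCNMA1 is at 11.20 to 11.39 with DHT and 10.23 to 10.35 with vehicle, and KCNK5 at 6.82 to 7.14 and 8.38 to 8.62.

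Set side by side in C42B, 6 channel genes were called with both siLSD1 and DHT, 60% of the 10 and 24% of the 25, against 52.6% and 29% among all genes. KCNMA1 rose by 0.23 with siLSD1 and by 1.04 with DHT, KCNRG by 0.32 and 0.68, and KCNQ5 fell by 0.62 and 0.90. KCNK5 rose by 0.38 with siLSD1 and fell by 1.45 with DHT, KCNU1 rose by 0.61 and fell by 1.03, and KCNJ13, dim in all groups of both comparisons, also rose and fell. The experiments share no arrays, and their difference was not tested. Over the 136 genes the changes had an r of -0.07, against 0.05 over all genes. Between siLSD1 in LNCaP and DHT in C42B, 4 genes were called in both, 30.8% of the 13 and 16% of the 25, against 50.7% and 40.1% among all genes: KCNRG rose in each, CACNA2D2 and KCNG1 rose with siLSD1 and fell with DHT, and KCNK1 fell with siLSD1 and rose with DHT.

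Among 11 genes of calcium stores and store-operated entry, siLSD1 raised 4 and lowered 1 in C42B and raised 3 and lowered 2 in LNCaP. These are 45.5% in each line, against 18% and 25.9% of all genes. Of those at 6 or above in at least 1 group of the comparison, 55.6% and 50% were called, against 24.1% and 37.6% of all such genes. This list and those that follow were chosen with earlier results of these data known, so their shares are description and not a test. ORAI3, a pore of store-operated calcium entry, rose by 0.92 ± 0.06 and 0.75 ± 0.06 (SE) and ITPR1, an IP3 receptor of the endoplasmic reticulum, by 0.68 ± 0.09 and 0.69 ± 0.07. In LNCaP STIM1, the calcium sensor of the stores, rose by 0.41. With DHT 4 of the 11 rose and 2 fell (54.5%, against 32.7% of all genes), and RYR2 fell by 0.45 and STIM2 fell by 0.34. Over 16 ion pumps and exchangers 2 rose and 4 fell with DHT (37.5%), and ATP2B1, a plasma membrane calcium pump, fell by 1.73 ± 0.07. ATP1B1, the sodium pump's beta subunit, fell by 0.86 and SLC12A2, a chloride cotransporter, fell by 0.75. In C42B siLSD1 raised 1 of these 16 (6.25%), and in LNCaP it lowered 2 (12.5%).

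Over 30 channel partners and regulators, siLSD1 raised 2 in C42B, CAMK2D by 0.54 and SGK1 by 0.29, and raised 4 and lowered 2 in LNCaP, with CAMK2D at 0.51. DHT raised 3 and lowered 4 of them. The shares called, 6.67%, 20% and 23.3%, compare with 18%, 25.9% and 32.7% of all genes. SGK1, a kinase that raises the surface density of several channels, rose by 3.75 ± 0.06 (SE), FGF13, a binding partner of sodium channel pores, fell by 1.78 ± 0.07, and NEDD4, a ubiquitin ligase, fell by 0.62. Of 9 other cation channels DHT lowered 2 (22.2%), TPCN1 by 0.40 and CATSPER3 by 0.59, and none passed with siLSD1 in either line (limma; 0 had an unadjusted p under 0.05).

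Markers of other cell types were measured beside these results, because excitable cells carry many of the same channels. Of 8 neuron markers 5 were at 6 or above in C42B and 4 in LNCaP, with STMN2, CHGA and ELAVL4 dim in every group. The siLSD1 and siNTC arrays had summed intensities of 3796 to 3851 and 3834 to 4054 in C42B and of 2365 to 2594 and 2631 to 2854 in LNCaP. The sum was 4742 to 4956 with DHT against 3681 to 3912 with vehicle. MAP2 rose by 0.59 with siLSD1 in C42B and by 0.90 with DHT, and TUBB3 fell with siLSD1 in both lines. Of 7 muscle markers 3 or 4 were at 6 or above in a group, and their sum was 523 to 582 in the C42B arrays. In LNCaP the siLSD1 arrays had muscle sums of 537 to 563 and the siNTC arrays 636 to 667, and ACTA2 fell by 0.66. Of 8 stromal, endothelial and leukocyte markers 3 to 5 were at 6 or above, and none was called in any comparison (limma; at most 1 had an unadjusted p under 0.05), with sums of 643 to 837 in the siRNA arrays and 894 to 1067 in the others. The part of these marker changes in the channel results was not tested. The log2 ratio of the actin control's 3′ and 5′ probe sets, a sign of RNA integrity, was 1.17 to 1.31 for siLSD1 against 1.13 to 1.19 for siNTC in C42B, 0.93 to 1.09 against 0.82 to 0.98 in LNCaP, and 0.91 to 1.16 with DHT against 0.90 to 1.12 with vehicle, and its part was not tested either.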

How the data were processed

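RNA of 20 cultures was hybridized to Affymetrix arrays. The authors deposited a linear intensity for each of 54675 probe sets. Per the submitters' processing notes RMA and affy were used, with versions and the arrays normalized together not given in the sources used here. Intensity distributions fell into 3 classes, 1 per experiment. The labels name 2 labelling kits but tie none to a sample, so kit and experiment cannot be told apart. The raw scans were not used here.

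The log2 was taken of each intensity. Of the probe sets 62 were controls, 41091 named 1 gene in the platform annotation, 1801 several and 11721 none here. The probe set brightest over all arrays stood for each of 19775 genes, with no filter on dim genes. Each comparison was fitted on its own arrays in R 4.3.3 with limma 3.58.1 (lmFit, eBayes), two-sided, without covariates, and p-values were adjusted over the 19775 genes (Benjamini-Hochberg, threshold 0.05). Adjusted p "over all probe sets" come from a fit of every probe set that names 1 gene. The difference between lines was a contrast over 12 arrays. Figures were drawn with matplotlib 3.10.9 and tables made with scipy 1.17.1, pandas 2.3.3 and numpy 2.4.6 in Python 3.11.15. All 136 channel genes matched RefSeq's gene table. On simulated data with 200 changed genes, 40% to 87% of changes of 0.5 on the log2 scale and 89% to 98% of changes of 1 were recovered.

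The members, the families and the lists were chosen with earlier results of these data known. Named genes were, per comparison, up to 10 rises and 10 falls that passed, reached 6 in a group and kept the groups apart, up to 6 per direction for the difference, SCN4B, KCNG3, KDM1A, genes called in all 3 comparisons or in opposite directions in the lines, the 3 genes on each side of the dim limit, and up to 3 per list. Dim genes, SCN8A, SCN2A, KCNB2 and the second probe sets were named after their values were seen. Alternatives were averaged probe sets, every probe set, bright genes only, a replicate block, median centring, quantile normalization, eBayes with trended and robust variance, and each array left out.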

Additional observations from a re-analysis of the deposited data

Results flagged for a closer look

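In 4 named genes 1 DHT array lay apart from the other 3 by more than a Dixon test at 95% allows, which chance gives in about 1 of 20 groups. CACNA1D had its highest DHT array at 6.48, with the next at 6.32, and CACNA2D2 had 8.16, with the next at 8.02. KCNK5 had its lowest DHT array at 6.82, with the next at 7.09, and KCNRG had 6.77, with the next at 6.95.

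The effect of siLSD1 differed between the lines in 12 channel genes by the limma contrast. With the higher effect in LNCaP these were KCNG3 (0.98), KCND3 (0.63), KCNG1 (0.54), KCNQ5 (0.53), KCNH2 (0.53), CACNA2D2 (0.50), KCNQ1 (0.47), KCNJ16 (0.45) and CACNB2 (0.44). With the lower effect there they were SCN4B (-1.18), KCNK5 (-0.42) and KCNMA1 (-0.34). KCNJ16, an inward rectifier with an adjusted p of 0.046, was dim in all 4 groups.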

How the results depend on the processing

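Under the alternatives tried, 561 of 623 recomputed values of named genes kept their direction and side of the threshold, 62 kept the direction but no longer passed, and 0 reversed. The rises with DHT numbered 14, and 8 over bright genes only and 31 with median centring. The falls with siLSD1 in C42B numbered 3, and 5 with quantile normalization and 6 over every probe set. The fall in LNCaP numbered 1, and 3 with quantile normalization, median centring or every probe set, and 2 with averaged probe sets or trended robust eBayes. Higher effects in LNCaP numbered 9, and 4 with averaged probe sets. With each array left out, the counts ran from 9 to 14 and from 11 to 12 for rises and falls with DHT, from 5 to 7 and from 2 to 10 with siLSD1 in C42B, from 7 to 14 and from 0 to 3 in LNCaP, and from 6 to 11 and from 2 to 4 for the difference. The KDM1A difference with DHT ran from 0.13 to 0.17. Arrays of the same replicate number were not treated as pairs in the main fits. Correlations of same-numbered arrays were -0.10 to 0.18 in C42B, -0.02 to 0.20 in LNCaP and -0.07 to 0.10 with DHT. Of the pairs, 1 of 3, 1 of 3 and 2 of 4 correlated best with their own number. So few arrays cannot decide whether they were paired. With the replicate block 3 genes fell in LNCaP, and CACNG1 and KCNJ11 with DHT (adjusted p = 0.050 and 0.076) and CACNB2 in the difference (0.064) no longer passed. In 65 of the 136 genes the probe set used was dim in every group, which limits what it can show.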
